A study of Mus musculus with 4 samples.

Results

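Zbp1, Ripk1, Ripk3 and Mlkl encode the core of necroptosis, a form of cell death in which the plasma membrane ruptures without caspase activity. The genes were chosen by name and found by symbol, 4 of 4, among the 56953 gene rows of the count table. The label was checked against the annotation only, since the rule names genes and no cell type. The table covers 4 libraries from mice of 2 months on a normal diet. They are labelled as liver, although the library protocol names primary hepatocytes. All carried Ubc13 flox/flox alleles, in which loxP sites flank part of the gene for Ubc13 (Ube2n). The 2 control libraries came from mice negative for the transgene that the labels call Alb or albumin, read here as albumin-Cre, and are given the genotype WT in the labels, although they carry the floxed alleles. The 2 deletion libraries came from mice positive for the transgene, whose albumin promoter drives Cre recombinase mainly in hepatocytes, so that most other liver cells keep the gene. The labels do not give strain, sex or pooling, and nothing in them says that the replicates were separate animals, so p-values measure only the spread between these samples.

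ZBP1 and RIPK1 sit at the entry of the pathway. ZBP1 senses Z-form nucleic acids and is itself induced by interferon, and RIPK1 is the kinase recruited by death receptors such as the TNF receptor. Each can pass the signal to the kinase RIPK3 through a shared interaction motif called the RHIM, and RIPK3 then phosphorylates the pseudokinase MLKL, which moves to the plasma membrane and breaks it. Ubc13 builds K63-linked ubiquitin chains, and such chains on RIPK1 recruit the kinase TAK1 and hold RIPK1 in a survival mode, while caspase 8 cleaves RIPK1 and RIPK3. Hepatocytes at rest are known for low levels of RIPK3. The series names PANoptosis, the joint activation of pyroptosis, apoptosis and necroptosis, among its topics.

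The sensor and the executor rose, and the kinases between them did not pass the test. Zbp1 was 5.17-fold and Mlkl 7.56-fold higher in the deletion libraries. Ripk1 differed by 1.03-fold and Ripk3 by 1.52-fold, and neither passed. The members called higher were thus 2 of 4, where 6.57% of the 14600 genes tested were called, 4.41% higher and 2.16% lower (edgeR quasi-likelihood test, Benjamini-Hochberg adjusted p under 0.05).

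The upstream sequence of Mlkl, the member that rose most, is shown beside that of its kinase Ripk3, which did not pass, and of the second start site of Ripk1, which holds the only searched motif found upstream of a member. Sequences are RefSeq windows on GRCm38.p6, cut to the longest stretch outside annotated exons, 5′ to 3′ on the gene's strand, with capitals marking the motif match. RefSeq windows matched 3 of the 4 members, and Zbp1 had no entry. The Ripk1 stretch lies inside the annotated gene (34002363 to 34037147). It also begins right beside the 5′ end of Serpinb6a, a minus-strand neighbour (33917918 to 34002794), so its motif lies upstream of that gene too. Serpinb6a was called higher and Ripk1 was not called, and whether the motif acts on either gene was not tested.
Mlkl, chr8:111338206-111338455, minus strand: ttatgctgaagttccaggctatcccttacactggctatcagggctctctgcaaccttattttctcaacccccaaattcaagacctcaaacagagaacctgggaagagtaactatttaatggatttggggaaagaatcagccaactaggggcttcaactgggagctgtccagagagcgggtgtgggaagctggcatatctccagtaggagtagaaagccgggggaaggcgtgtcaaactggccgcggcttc
Ripk3, chr14:55788866-55789107, minus strand: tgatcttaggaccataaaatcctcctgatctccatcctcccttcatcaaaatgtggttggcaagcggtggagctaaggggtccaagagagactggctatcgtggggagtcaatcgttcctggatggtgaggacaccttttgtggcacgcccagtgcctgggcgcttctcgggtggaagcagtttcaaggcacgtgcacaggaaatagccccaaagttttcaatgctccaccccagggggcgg
Ripk1, second start, chr13:34002795-34002873, plus strand: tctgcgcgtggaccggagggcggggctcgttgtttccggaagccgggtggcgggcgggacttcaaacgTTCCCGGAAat

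Motifs were searched on both strands in the 250 bases before each start. The interferon-stimulated response element, searched as GAAA, any 2 bases and GAAA, was in 2.98% of all 32851 RefSeq promoters and upstream of 0 of the 3 members with a window. The gamma-activated sequence TTCNNNGAA, which reads the same on both strands, was in 7.02% of promoters and upstream of Ripk1 alone among these members. The kappaB form, searched as GGGA, any 4 bases and CC, was in 17.6% of promoters and upstream of 0 of the 3. Of 22 interferon-stimulated genes with a window, 11 held the response element, 50% of them. The letters of a window say nothing of binding, and elements farther from the start lie outside it.

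Zbp1, the nucleic acid sensor, lies on chromosome 2 from 173206612 to 173218923 on the minus strand (GRCm38, GENCODE M21, ENSMUSG00000027514). Libraries of this kind read near the 3′ end of a transcript, and the last exon of Zbp1, exon 8, spans 173206612 to 173207226 and overlaps no exon of another gene. Zbp1 had 5.06 and 10.2 CPM (counts relative to library size, scaled between libraries by the TMM method) in control replicates 1 and 2 and 35.7 and 43.1 CPM in deletion replicates 1 and 2, from 82, 149, 649 and 837 counts. Both deletion libraries lay above both controls, and the controls themselves differed beyond their counting intervals (95% exact Poisson, 4.02 to 6.28 and 8.66 to 12 CPM). The log2 fold change was 2.37 ± 0.33 (SE, n = 2 per group, edgeR adjusted p = 0.016), with a 95% interval of 1.56 to 3.17. Without deletion replicate 2 the log2 fold change was 2.22 and the call was lost, in a fit with 1 deletion library.

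Ripk1, the death receptor kinase, is a plus-strand gene of chromosome 13 (34002363 to 34037147, ENSMUSG00000021408). It had 28.9 and 34.1 CPM in control replicates 1 and 2 and 36.3 and 28.7 CPM in deletion replicates 1 and 2, from 469, 497, 660 and 558 counts. The highest and the lowest value were those of the deletion libraries, so the groups overlapped. The log2 fold change was 0.04 ± 0.18 (edgeR adjusted p = 0.919), with an interval of -0.40 to 0.49; its upper end is a 1.40-fold rise. Its sign turned under 4 of 15 alternatives. The annotation gives 2 ends for its last exon, exon 11, at 34033677 and at 34037147, and gene counts do not tell transcripts with these ends apart.

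The first 432 bases of Ripk1 (34002363 to 34002794) overlap Serpinb6a, a serine protease inhibitor gene read from the other strand. Serpinb6a had 20.5 and 14.8 CPM in controls against 134 and 154 CPM after deletion, higher by 3.03 ± 0.21 on the log2 scale (edgeR adjusted p = 0.0039). The overlap is at the 5′ ends of both genes, away from the last exons, and whether counting used strand is not given in the sources used here. Gm17084, whose exon overlaps the longer last exon of Ripk1 on the same strand, had 0 counts in all 4 libraries. How reads shared by these genes were counted is not given either, so reads of that Ripk1 end may be missing.

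Ripk3, the kinase that phosphorylates MLKL, lies on chromosome 14 from 55784995 to 55788865 on the minus strand (ENSMUSG00000022221), with its last exon, exon 10, at 55784995 to 55785351. It was the least counted member, with 25, 35, 53 and 60 counts in control replicates 1 and 2 and deletion replicates 1 and 2. These correspond to 1.54 and 2.40 CPM in controls against 2.91 and 3.09 CPM after deletion. The deletion libraries lay above the controls without overlap, as was the case for 28.7% of all tested genes (27.3% did not overlap and were lower, 56% in all), but the counting intervals of control replicate 2 (1.68 to 3.34 CPM) and deletion replicate 1 (2.18 to 3.81 CPM) overlapped. The log2 fold change of 0.61 ± 0.37 did not pass (edgeR adjusted p = 0.371), and its interval of -0.29 to 1.5 includes 0 and reaches a 2.83-fold rise.

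Mlkl, the pseudokinase that carries out membrane rupture, lies on chromosome 8 from 111311797 to 111338177 on the minus strand (ENSMUSG00000012519). Its last exon, exon 11, spans 111311797 to 111312077 and overlaps no exon of another gene. Mlkl had 2.22 and 4.40 CPM in control replicates 1 and 2 and 22.0 and 27.7 CPM in deletion replicates 1 and 2, from 36, 64, 401 and 539 counts. The lower deletion library stood above the higher control, and their counting intervals (19.9 to 24.3 and 3.39 to 5.62 CPM) were far apart. The log2 fold change was 2.92 ± 0.34 (n = 2 per group, edgeR adjusted p = 0.00954), with an interval of 2.10 to 3.74, and 98.8% of tested genes had a log2 fold change at or below it. With 1 library left out, the log2 fold change of Mlkl lay between 2.50 and 3.48. Such a fit leaves 1 library in a group, so its spread between replicates comes from the other pair alone.

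**Figure D1:**
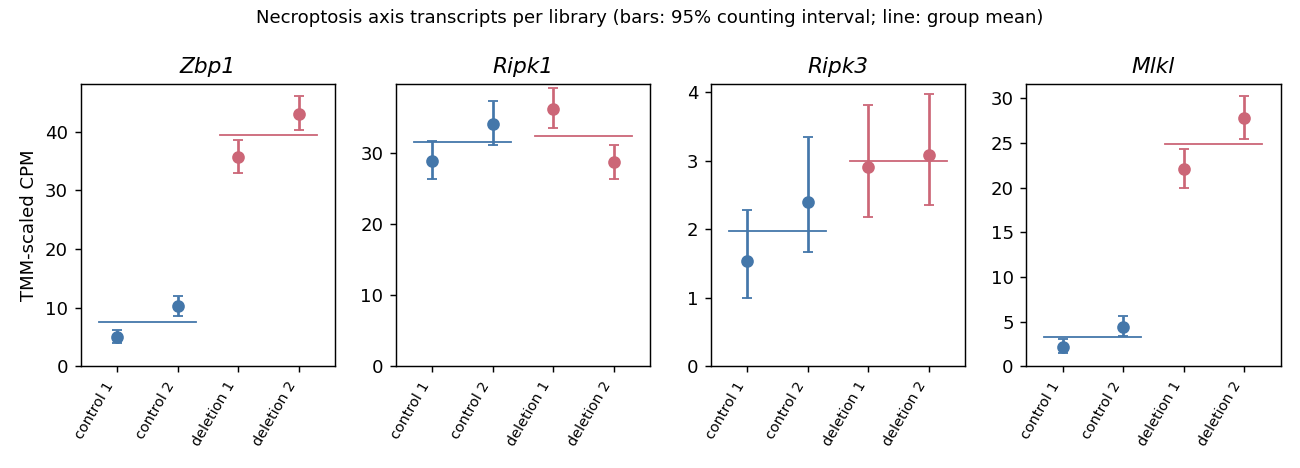
TMM-scaled CPM (vertical axes, each starting at 0) of Zbp1, Ripk1, Ripk3 and Mlkl in the 4 libraries, with points for libraries, bars for 95% counting intervals and lines for group means. Zbp1 and Mlkl are higher in both deletion libraries (35.7 and 43.1, and 22.0 and 27.7 CPM) than in both controls, Ripk1 overlaps between groups, and Ripk3 stays under 3.1 CPM throughout.

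All 4 members were lower in control replicate 1 than in control replicate 2, and Zbp1 and Mlkl were lower in deletion replicate 1 than in deletion replicate 2. The fold of Zbp1 therefore depended on the control used. Without control replicate 1 its log2 fold change was 1.94, and without control replicate 2 it was 2.96. For Mlkl the same values were 2.50 and 3.48, and for Ripk3 they were 0.32 and 0.96.

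Within a library, ratios of counts need no scaling between libraries, and they show how the balance of the 4 transcripts moved. For each Mlkl count there were 0.694 and 0.547 Ripk3 counts in control replicates 1 and 2, against 0.132 and 0.111 in deletion replicates 1 and 2, so the executor gained 5.08-fold on its kinase. Zbp1 counts per Ripk1 count were 0.175 and 0.30 in controls against 0.983 and 1.5 after deletion. The ratio of Zbp1 to Mlkl moved least, from 2.28 and 2.33 to 1.62 and 1.55. The groups did not overlap in any of the 6 ratios, which are built from the same 4 genes and are not independent. The CPM of 56% of all tested genes did not overlap between groups either. None of the ratios was tested, since an exact permutation of 2 libraries against 2 (two-sided) cannot go below p = 0.333.

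Of all counts on the 4 genes, Ripk1 held 76.6% (95% Clopper-Pearson interval 73.1 to 79.9) and 66.7% (63.2 to 70.1) in control replicates 1 and 2. It held 37.4% (35.2 to 39.7) and 28.0% (26.0 to 30.0) in deletion replicates 1 and 2. Zbp1 held 13.4% (10.8 to 16.4) and 20% (17.2 to 23.1) in controls against 36.8% (34.6 to 39.1) and 42.0% (39.8 to 44.2) in the deletion libraries. Mlkl went from 5.88% (4.15 to 8.05) and 8.59% (6.68 to 10.8) to 22.8% (20.8 to 24.8) and 27.0% (25.1 to 29.0). Ripk3 held between 3.01% and 4.70% in every library. These are shares of 3′ counts, which are not scaled to transcript length, and not levels to be ranked between genes.

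The deletion itself and the make-up of the libraries bear on every value here. Ube2n fell from 41.3 and 44.9 CPM to 5.88 and 5.97 CPM (log2 fold change -2.86 ± 0.16, edgeR adjusted p = 0.00188), and which exons are floxed is not stated in the labels. Total counts were 16270424 to 17800138 per library. Deletion replicate 1 had 9590 counts of Xist, the RNA of the inactive X chromosome, and 0 CPM summed over the Y chromosome genes Eif2s3y, Kdm5d, Ddx3y and Uty, and deletion replicate 2 had 3896 counts of Xist and 0.613 of the control Y-linked level. The controls had at most 9 Xist counts, so genotype runs along with sex-linked RNA. Deletion replicate 2 thus held Xist and Y-linked RNA together, and whether it mixes RNA of several animals was not tested. Without deletion replicate 1, the library with no Y-linked RNA, the log2 fold changes of Mlkl and Zbp1 were 3.06 and 2.49. With the Y-linked share as a covariate they were 3.36 and 2.77, and neither passed (edgeR adjusted p = 0.103 and 0.151, in a fit with 1 residual degree of freedom).

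The sample labels say liver and the library protocol names primary hepatocytes, so the material is not certain. Marker sums of other cell types can therefore not be read as their share of the liver. Bulk RNA can hold several cell types, and in such samples more cells of a type and more RNA per cell cannot be told apart. Summed hepatocyte markers (10 genes) were at 0.429 of the control level, from 148000 to 154900 CPM in the controls to 63080 to 66890 CPM after deletion. Most of that sum was Alb, the albumin gene, with 119000 and 115000 CPM in controls against 45310 and 42890 CPM after deletion, which did not pass (log2 fold change -1.41 ± 0.33, edgeR adjusted p = 0.0612). Of the 10 genes 2 were called lower, Ttr and Serpina1c, while 7 were lower at an unadjusted p under 0.05 and 7 by DESeq2. Of all 14600 tested genes, 2038 were higher and 1528 lower at an unadjusted p under 0.05, and 993 and 654 by DESeq2. The abundant Apoa1 and Cps1 were at -0.70 ± 0.22 and -0.74 ± 0.25, and Apob, Hnf4a and Cyp3a11 were at -0.14, -0.21 and -0.08, none of them passing. Summed monocyte and macrophage markers (10 genes) were 146 to 175 CPM in controls against 484 to 530 CPM after deletion, 3.16-fold higher, with 4 called higher (8 at an unadjusted p under 0.05, 4 by DESeq2). Most of that rise came from Cybb, which had 13.1 and 17.3 CPM in controls against 183 and 190 CPM after deletion, and from Cd9. Their most abundant other markers, Csf1r and Lyz2, did not pass, with log2 fold changes of 0.60 ± 0.24 and 0.59 ± 0.19. Summed Kupffer cell markers (10 genes) were 449 to 627 CPM in controls against 748 to 929 CPM after deletion, with 1 called higher (7 at an unadjusted p under 0.05, 1 by DESeq2). The log2 fold changes of 10 of the 10 Kupffer cell markers were above 0, and 8 were higher in both deletion libraries than in both controls. Of all 14600 tested genes, 7247 were above 0 and 28.7% were higher in both deletion libraries. Markers of 1 cell type can move together, so these are not separate observations.

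Other immune cells left few counts. The 8 neutrophil markers summed to 2.22 to 5.29 CPM in controls against 8.29 to 9.56 CPM after deletion, and the defining gene Ly6g had 0 counts throughout. Of the 3 tested, 0 were called by edgeR, 2 were higher at an unadjusted p under 0.05 and 0 were called by DESeq2. The 11 lymphocyte markers summed to 5.92 to 7.83 CPM and 6.59 to 10.6 CPM, with 0 of the 7 tested called by edgeR, 0 at an unadjusted p under 0.05 and 0 by DESeq2. Of 8 cholangiocyte markers 7 were tested, and Spp1 and Sox9 were called higher (3 higher and 1 lower at an unadjusted p under 0.05, 2 and 0 by DESeq2), and Krt19 had 39.2 and 3.23 CPM in controls against 2.91 and 3.96 CPM after deletion. That list's sum, 76.3 to 127 CPM in controls against 1371 to 1970 CPM after deletion, was mostly Spp1. Markers of sinusoidal endothelium summed to 278 to 323 CPM in controls against 248 to 262 CPM after deletion. Those of stellate cells summed to 473 to 656 CPM in controls against 507 to 510 CPM after deletion. Both lists had 0 calls in 8 genes each by edgeR. In each, 2 were lower at an unadjusted p under 0.05, and DESeq2 called 1 endothelial gene lower. Log2 fold changes above 0 were 0 of 8 for endothelium (median -0.26) and 3 of 8 for stellate cells (median -0.12), against 7247 of all 14600 tested genes.

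Set against the monocyte and macrophage sum, Mlkl and Zbp1 were higher after deletion, and Ripk1 and Ripk3 were lower. Set against the cholangiocyte sum, which was mostly Spp1, each of the 4 was lower, with ratios between groups of 0.275 for Zbp1, 0.0607 for Ripk1, 0.0845 for Ripk3 and 0.401 for Mlkl. Per 100 CPM of monocyte and macrophage markers there were 1.52 and 2.52 CPM of Mlkl in controls against 4.55 and 5.24 in the deletion libraries. Zbp1 went from 3.46 and 5.86 to 7.36 and 8.13 on the same scale. On that scale Ripk3 went from 1.05 and 1.38 to 0.601 and 0.583, and Ripk1 from 19.8 and 19.5 to 7.49 and 5.42. Per 100 CPM of Kupffer cell markers, Ripk3 was at 0.344 and 0.383 in controls against 0.314 and 0.413 in the deletion libraries, a ratio of 0.999 between groups. On the Kupffer cell scale the ratio was 3.48 for Zbp1, 0.651 for Ripk1 and 5.085 for Mlkl. Over all marker lists the Ripk3 ratio ran from 0.0845 (cholangiocyte) to 3.53 (hepatocyte). The part that a shift in cell types had in the changes of Zbp1 and Mlkl was not tested.

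**Figure D2:**
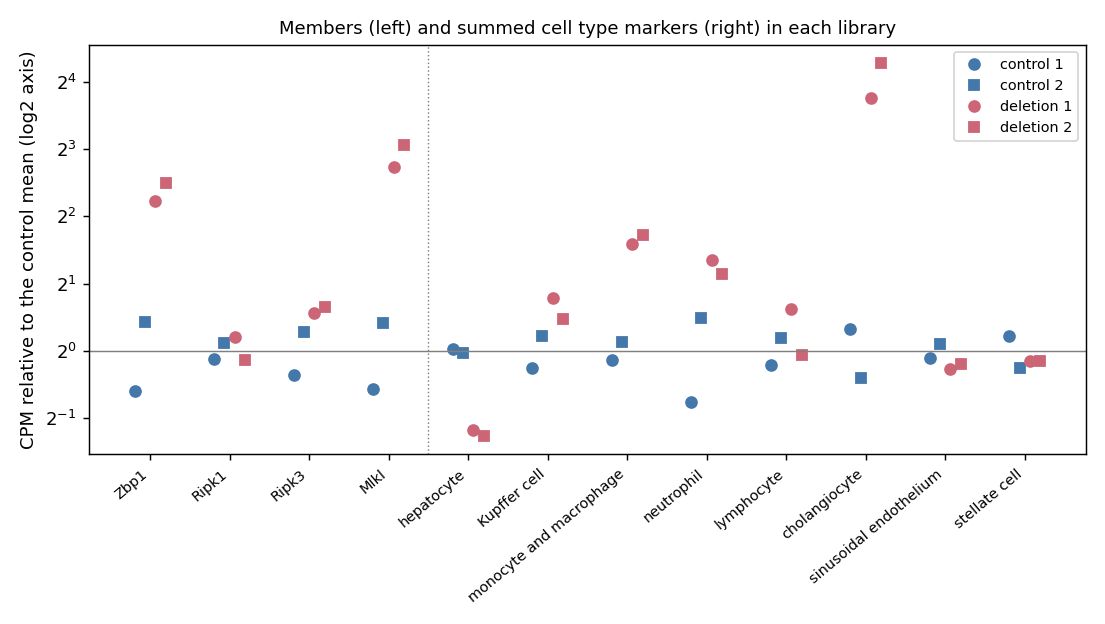
CPM of each member (left of the dotted line) and summed CPM of each marker list (right), divided by the control mean, on a log2 axis, with circles for replicate 1, squares for replicate 2, blue for controls and red for deletion libraries. Mlkl and Zbp1 lie above the monocyte and macrophage sum and below the cholangiocyte sum in the deletion libraries, Ripk3 lies near the Kupffer cell sum, and the hepatocyte sum is at 0.429 of the controls.

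Upstream of the axis, the ligands Tnf and Fasl were scarce and the TRAIL receptor rose. Values given below as a number ± SE are log2 fold changes, deletion over control. List counts below stand beside 2038 higher and 1528 lower of all 14600 tested genes at an unadjusted p under 0.05. By edgeR 644 and 315 of all tested genes were called, and by DESeq2 993 and 654. Tnf and Fasl, the ligands of the classical death receptors, were at most 1.21 CPM in every library and did not pass the filter on low counts. Of 11 tested ligands and receptors of death, interferon and Toll-like receptor signalling 2 were called higher and 0 lower (6 and 0 at an unadjusted p under 0.05, 5 and 0 by DESeq2), with a median log2 fold change of 0.70 against -0.0036 over all tested genes, and 11 of the 11 were above 0. Tnfrsf10b, the mouse TRAIL receptor, went from 1.3 and 1.24 CPM to 6.05 and 6.18 CPM (log2 fold change 2.26 ± 0.30, edgeR adjusted p = 0.0139), and its ligand Tnfsf10 was at 1.37 ± 0.30 and did not pass (edgeR adjusted p = 0.0533). The interferon gamma receptor chain Ifngr1 rose by 0.87 ± 0.15 on the log2 scale (edgeR adjusted p = 0.0293). Tnfrsf1a, the TNF receptor that recruits RIPK1, was at 0.70 ± 0.19 (edgeR adjusted p = 0.0832).

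The Tnfrsf10b and Ifngr1 calls were lost without deletion replicate 1 or 2, and with a replicate block (edgeR adjusted p = 0.0519 and 0.083). Without control replicate 1 the log2 fold changes of Tnfsf10 and Tnfrsf1a were 1.65 and 0.88. Without control replicate 2 they were 1.14 and 0.53.

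Of the adaptors that join these receptors to RIPK1, none was called. Casp8, the protease that cuts RIPK1 and RIPK3, had 30.7 and 37.9 CPM in controls against 36.8 and 34.1 CPM after deletion (log2 fold change 0.05 ± 0.17). Fadd and Tradd, the death domain adaptors, were at 0.19 ± 0.29 and -0.07 ± 0.21, and the RHIM adaptor of Toll-like receptors, Ticam1, at 0.12 ± 0.15. Cflar, whose long form partners caspase 8 and keeps necroptosis in check, had 133 and 158 CPM in controls against 98.0 and 89.7 CPM after deletion. Its log2 fold change of -0.63 ± 0.16 did not pass (edgeR adjusted p = 0.0738). It was -0.75 without control replicate 1 and -0.50 without control replicate 2. Thus 0 of 5 were called by edgeR, with 1 lower at an unadjusted p under 0.05 and 1 lower by DESeq2, and their median was 0.05. The signs of Casp8, Fadd and Tradd turned under 3, 1 and 4 alternatives.

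Among 14 tested enzymes that place, edit or read ubiquitin on RIPK1, 2 were called higher and 0 lower (5 and 0 at an unadjusted p under 0.05, 3 and 0 by DESeq2), with a median of 0.17. Tnip1, an adaptor of the deubiquitinase A20, went from 9.25 and 7.21 CPM to 27.5 and 24.4 CPM (log2 fold change 1.66 ± 0.19, edgeR adjusted p = 0.00973). Birc3, the ligase cIAP2 that puts K63-linked chains on RIPK1, went from 12.3 and 12.3 CPM to 33.2 and 21.7 CPM (1.16 ± 0.23, edgeR adjusted p = 0.0417). The Birc3 call was lost without deletion replicate 1, with limma-voom (0.0606) and with a replicate block (0.0783). Its relative Birc2 was at 0.72 ± 0.26 (edgeR adjusted p = 0.162). Birc2 was at 0.51 without control replicate 1 and 0.96 without control replicate 2. The deubiquitinase Cyld was at 0.11 ± 0.14. Tnfaip3, the gene of A20, had 5.06 and 3.3 CPM in controls against 59.1 and 13.5 CPM after deletion, and it did not pass (3.11 ± 0.70, edgeR adjusted p = 0.0568). A replicate block made it pass (edgeR adjusted p = 0.041). Without control replicate 1 or 2 its log2 fold change was 3.45 or 2.84. Without deletion replicate 1 or 2 it was 1.68 or 3.815.

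Of 12 kinases and partners that phosphorylate RIPK1 and hold it back, 1 was called higher and 0 lower (2 and 2 at an unadjusted p under 0.05, 2 and 0 by DESeq2), with a median of -0.05. Mapkapk2, the kinase MK2, went from 59.9 and 55.9 CPM to 114 and 105 CPM (log2 fold change 0.92 ± 0.15, edgeR adjusted p = 0.0227). That call was lost without deletion replicate 1 or 2, and with a replicate block (edgeR adjusted p = 0.0649). Map3k7, the gene of TAK1, was at -0.36 ± 0.14 (edgeR adjusted p = 0.184), and Ikbkg, the gene of NEMO, and Ikbke were at 0.65 ± 0.16 and 0.62 ± 0.33 without passing.

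Downstream of MLKL, 0 of 14 tested genes were called by edgeR, where 5 were higher and 1 lower at an unadjusted p under 0.05 and DESeq2 called 1 higher. The list holds ESCRT-III and related membrane repair genes, flotillins, TAM receptors and regulators of MLKL, and its median was 0.19. Sdcbp, the gene of syntenin-1, had 60.7 and 58.9 CPM in controls against 90.6 and 97.6 CPM after deletion (log2 fold change 0.65 ± 0.14, edgeR adjusted p = 0.0515). It passed in 7 of its alternatives, limma-voom among them (0.0488). Flot1 and the receptor kinase Axl were at 0.88 ± 0.30 and 0.60 ± 0.16. Flot1 was at 1.20 without control replicate 1 and 0.62 without control replicate 2.

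Beside ZBP1, 3 of 10 tested genes of nucleic acid sensing were called higher and 0 lower (6 and 0 at an unadjusted p under 0.05, 4 and 0 by DESeq2), with a median of 0.68. Ddx58, the RNA sensor RIG-I, went from 29.7 and 22.7 CPM to 54.7 and 60.4 CPM (log2 fold change 1.13 ± 0.18, edgeR adjusted p = 0.0236). Its relatives Dhx58 and Ifih1, the gene of MDA5, rose by 1.49 ± 0.26 and 0.89 ± 0.15 (edgeR adjusted p = 0.0303 and 0.0268). Each of the 3 lost its call without deletion replicate 2 and with a replicate block (edgeR adjusted p = 0.0656, 0.078 and 0.0784). Ddx58 and Ifih1 also lost it without deletion replicate 1. Adar, the RNA editing enzyme that keeps Z-form RNA from ZBP1, was at 0.77 ± 0.18 (edgeR adjusted p = 0.0597). Adar was at 0.91 without control replicate 1 and 0.64 without control replicate 2. Trex1 had 0 counts in every library.

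**Figure D3:**
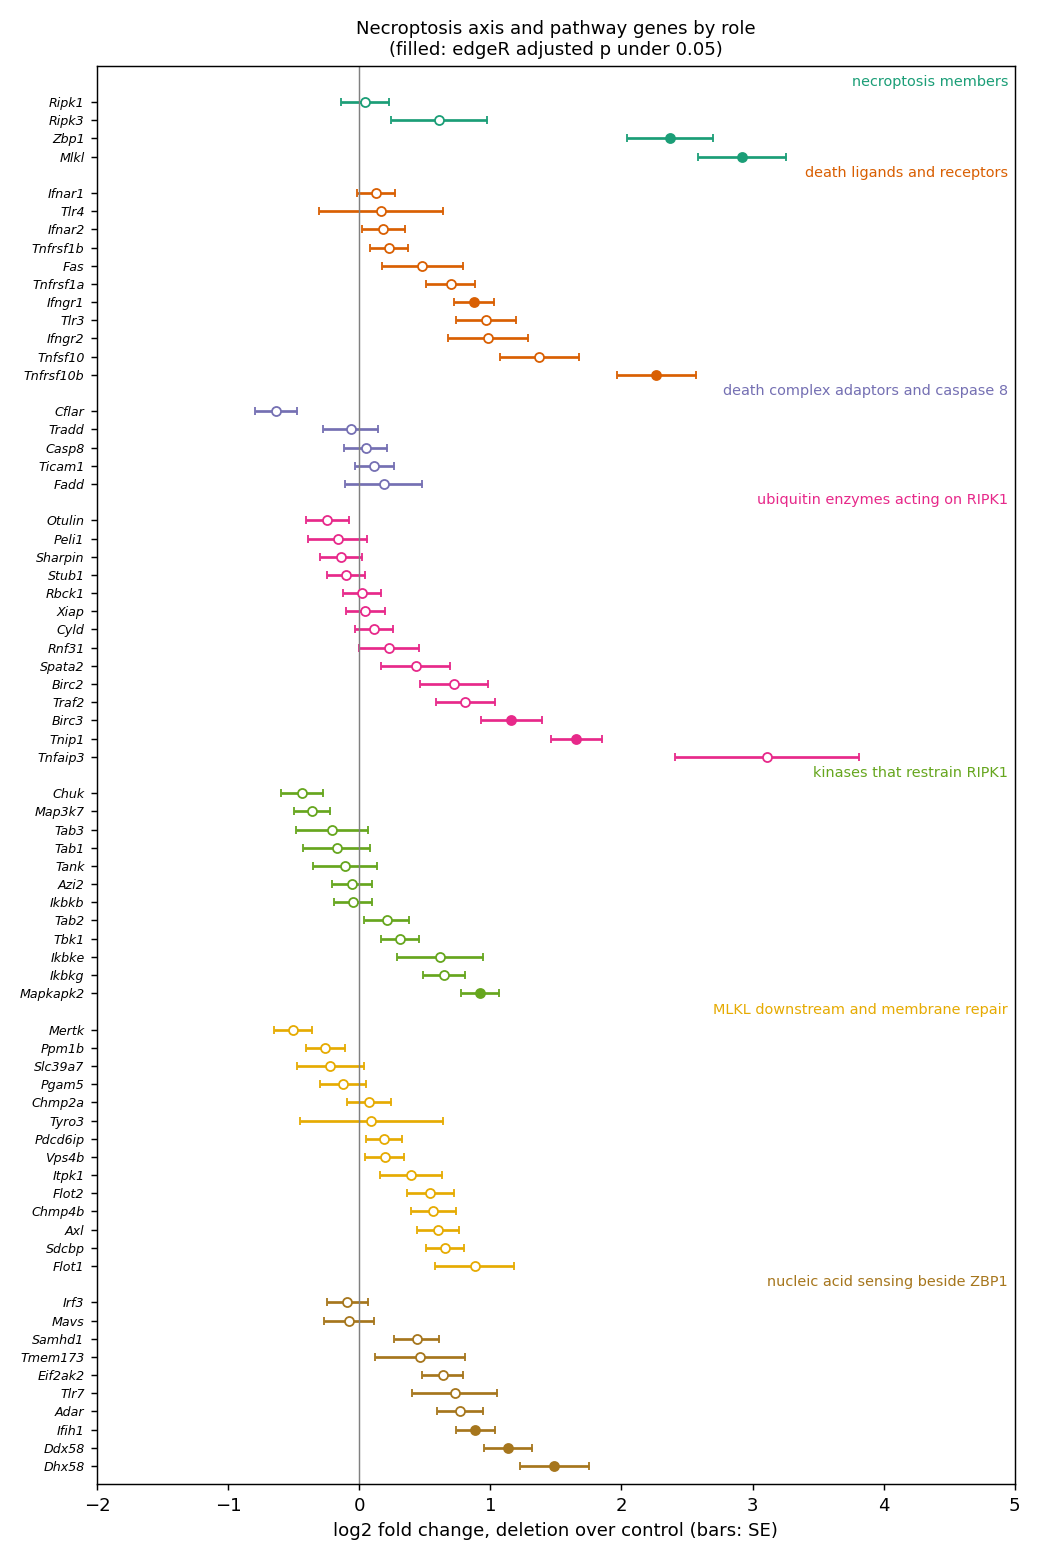
Log2 fold changes, deletion over control (horizontal axis, bars for SE), of the 4 members and of tested pathway genes grouped by role, without the interferon-stimulated genes, with filled points for genes called by edgeR at an adjusted p under 0.05. Mlkl at 2.92, Zbp1 at 2.37, Tnfrsf10b at 2.26 and Tnip1 at 1.66 are the called genes plotted farthest to the right, and Tnfaip3 at 3.11 is not called.

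Zbp1 belongs to the interferon-stimulated genes, a list of 28 other genes. Of these, 15 were called higher and 0 lower (23 and 0 at an unadjusted p under 0.05, 19 and 0 by DESeq2), with a median of 1.38. Over all 14600 tested genes the same counts were 644 and 315, 2038 and 1528, and 993 and 654. Oas1a, an RNA-binding oligoadenylate synthetase, went from 2.84 and 4.26 CPM to 17.4 and 20.6 CPM, a log2 fold change of 2.43 ± 0.27 close to that of Zbp1. The transcription factor Irf7 rose by 1.95 ± 0.21 (edgeR adjusted p = 0.00814). Of the 15 called genes 8 lost their call with a library left out, each of the 8 without deletion replicate 2. That fit leaves 1 deletion library. With the Y-linked share as a covariate 15 of the 15 lost their call. The same held for all 24 called genes of the pathway lists, interferon-stimulated genes included, with Ube2n counted among them. Cxcl10 had 2.90 and 3.09 CPM in controls against 97.6 and 8.34 CPM after deletion and did not pass, and it was picked after its values were seen. For Zbp1 the order was the other way, with the lower value, 35.7 CPM, in deletion replicate 1.

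The genes whose values ran closest to each member were found among tested genes with a mean of at least 5 CPM, by the root mean square distance of centred log2 CPM over the 4 libraries. For Zbp1 they were Tnfrsf12a, the receptor of TWEAK (distance 0.14), the chemokine Cxcl9 (0.14) and Oas1a (0.15). Cxcl9 had 7.90 and 12.2 CPM in controls against 46.3 and 60.6 CPM after deletion. For Mlkl they were Tmem71 (0.03), the cap-binding protein gene Eif4e3 (0.10) and the inflammasome gene Naip2 (0.11). Naip2 had 2.16 and 3.57 CPM in controls against 18.7 and 22.0 CPM after deletion. For Ripk3 they were Cip2a, Manba and Phip (0.02 to 0.03), and for Ripk1 Top1, ENSMUSG00000121137 and Pgp (0.01). With 4 libraries such likeness is common, as 717 of 10077 candidate genes had a correlation over 0.95 with Zbp1 and 778 with Mlkl.

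Of the nearest 2 tested genes on each side of each member, chosen by position, Serpinb6a and Rfwd3 were called higher and Pck1 lower. Rfwd3, which lies 11575 bases from Mlkl, rose by 0.72 ± 0.14 (edgeR adjusted p = 0.0415), and Wdr59 on its other side was at -0.03 ± 0.19. Pmepa1, 5535 bases from Zbp1, was at 0.45 ± 0.34, and Pck1, a gluconeogenic enzyme gene 47339 bases away, fell by 0.98 ± 0.21 (edgeR adjusted p = 0.0487). Adcy4, 900 bases from Ripk3, was at 0.28 ± 0.25. Tubb2a, a tubulin gene beside Ripk1, was at 2.16 ± 0.51 without passing (edgeR adjusted p = 0.0629).

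**Figure D4:**
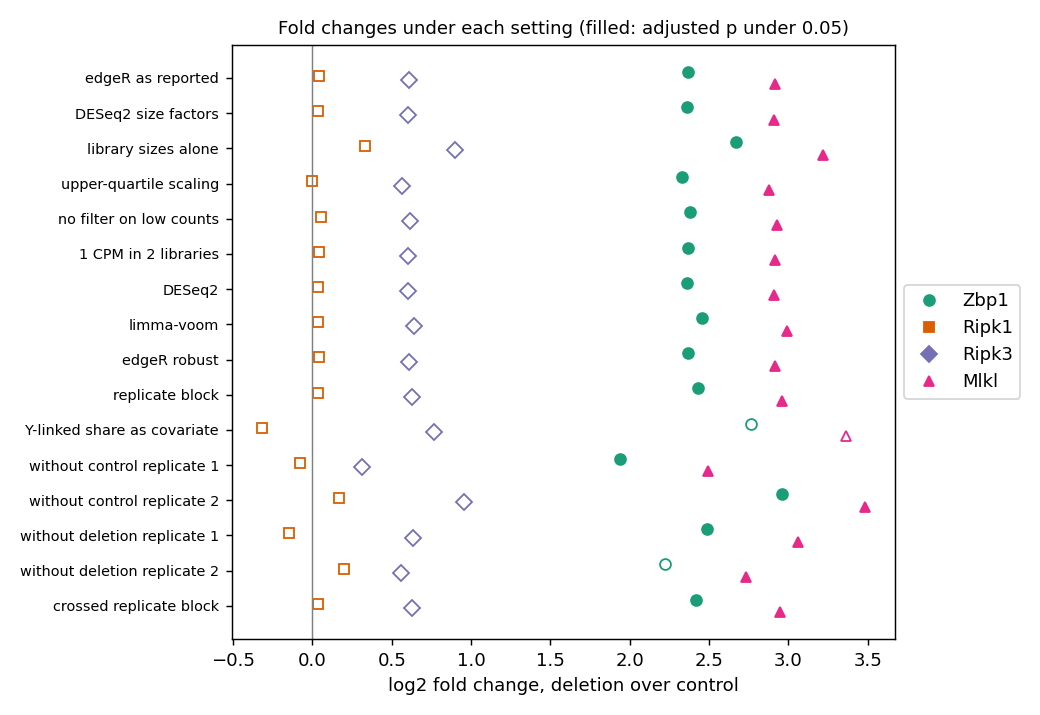
Log2 fold changes, deletion over control (horizontal axis), of the 4 members under the reported fit and 15 alternatives (rows), with filled symbols for an adjusted p under 0.05. Mlkl lies between 2.50 and 3.48 and Zbp1 between 1.94 and 2.96, Ripk3 between 0.32 and 0.96 is never filled, and Ripk1 between -0.32 and 0.33 falls on either side of 0.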

How the data were processed

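QuantSeq 3′ libraries (oligo-dT primed, single-end 75 bp reads) were aligned with Bowtie2, per the labels' protocols, and the submitters' processing notes name mm10 and GRCm38. The authors deposited raw counts per Ensembl gene, with 4 sample columns and 0 others. No counting program or strand setting is named in the labels or the file header. Sample labels say liver, but primary hepatocytes are named in the library protocol. Symbols came from GENCODE M21 and matched 52029 rows.

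Groups were compared with edgeR 4.0.16 in R 4.3.3 (quasi-likelihood F test, TMM, filterByExpr at a minimum count of 10 and total of 15, genotype only, two-sided), with Benjamini-Hochberg adjustment over 14600 genes and 2 residual degrees of freedom. Chi-squares of 42.9 (controls) and 28.0 (deletion libraries) per gene between replicates showed that neither pair was a single library. Counting intervals cover counting error only. The fits were tested on simulated data. Alternatives included DESeq2 1.42.0, limma-voom (limma 3.58.1), other scalings and filters, a replicate block, a Y-linked covariate and leaving out each library. The members and gene lists were chosen with earlier results of these data known. Named pathway genes were the called ones, filled up to 3 per list with the largest uncalled changes, and fixed core genes such as Casp8; the 3 most abundant tested genes of a marker list; and the 3 closest patterns per member. Other markers were named after their values were seen, and neighbours by position.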

Additional observations from a re-analysis of the deposited data

How the results depend on the processing

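Ripk3 kept its direction and did not pass in any of 15 alternatives (log2 fold change 0.32 to 0.96). Mlkl kept its call in 14 of 15 and Zbp1 in 13. Fits with 1 library left out are among the 15, and their calls rest on the spread of the other pair alone. With the Y-linked share as a covariate, Zbp1 was at 2.77 (adjusted p = 0.151) and Mlkl at 3.36 (0.103), the fit with 1 residual degree of freedom. With 1 library left out, Zbp1 ranged from 1.94 to 2.96, Ripk1 from -0.15 to 0.20 and Mlkl from 2.50 to 3.48. Ripk1 turned sign with upper-quartile scaling (-0.00051) and the Y-linked covariate (-0.32), and without control replicate 1 (-0.08) or deletion replicate 1 (-0.15). Under the Y-linked covariate Ikbke (-0.43), Casp8 (-0.040) and Tradd (0.21) also reversed, as did Tradd with library sizes alone (0.23). Without control replicate 1 Casp8 was at -0.10 and Tradd at 0.11, without deletion replicate 1 they were at -0.02 and 0.06, and without control replicate 2 Fadd was at -0.11. With 1 library left out they ranged from -0.10 to 0.21 (Casp8), -0.22 to 0.11 (Tradd) and -0.11 to 0.57 (Fadd); the cause was not tested.

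The 959 called genes (67.2% higher) became 1764 with library sizes alone (88.5% higher, the median of all genes moved by 0.29), 2768 without a filter, 1647 with DESeq2, 65 with the Y-linked covariate, and 343 to 2081 with 1 library left out. With a replicate block 390 were called, Zbp1 at 2.43 (adjusted p = 0.0222) and Mlkl at 2.96 (0.0173) among them. Deviations of same-numbered libraries had a correlation of -0.12. With 2 libraries per group this value cannot tell whether the numbers pair the samples. A crossed pairing, added after seeing the data, called 1366. Ripk3 had the fewest counts of the members, 25 to 60 per library, and depth and the spread between replicates were not separated as limits on it.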
